A study of Sus scrofa with 13 samples.

Results

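Pig livers that had received human mesenchymal stromal cells from bone marrow (BM-MSCs) after ischemia were pooled and set against the ischemic control livers. They comprise 8 infused livers, 4 infused through the hepatic artery and 4 through the portal vein, and 3 controls, so that 11 of the 13 sequenced samples enter the comparison. The remaining 2 samples are baseline livers sampled before ischemia, which served to estimate the spread and are quoted for orientation only. Infused and control livers came from female Yorkshire pigs and had 45 min of complete vascular exclusion and 6 h of reperfusion in common. The infused livers received 3 M (M, mega) human cells per kg body weight once blood flow had been restored, and the controls were clamped in the same way but were given no cells. The cells were an expanded human product, and which of its donors went into which liver is not given in the labels. Each value is the gene count of a whole biopsy, mapped to the pig genome. A step that separates human from pig reads is not given in the sources used here, and the part of the infused cells in the counts was not tested.

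Ischemia-reperfusion injury combines a burst of oxidants when blood returns with the activation of Kupffer cells, the resident macrophages of the liver, and the recruitment of neutrophils. Hepatocytes hold this in check with glutathione, whose first synthetic step is carried out by an enzyme made of the GCLC and GCLM subunits. BM-MSCs are given because they can dampen immune activation, chiefly through the factors they release.

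The pooled comparison asks what differs between livers with and without cells irrespective of the route, and which of these differences depend on a single control animal. In edgeR's quasi-likelihood test, fitted to all 13 libraries and 16481 genes, 0 genes (0%) had a Benjamini-Hochberg adjusted p under 0.05. The smallest adjusted p was 0.823. At an unadjusted p under 0.05, 232 genes (1.41%) were lower and 121 (0.734%) higher in infused livers, and the median log2 fold change of all genes was -0.023. These 353 genes are 2.14% of those tested. The threshold of 0.05 gives a larger share on average when no gene differs, so their number is no sign of a difference. DESeq2 fitted to the same libraries had 2 genes with an adjusted p under 0.05, MTUS1 and CCL3L1, and split its 555 genes with an unadjusted p under 0.05 the other way, into 217 lower and 338 higher.

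Only 3 controls carry the contrast, so it was fitted again with each of them left out. Without Control 1, 198 of the 353 genes kept an unadjusted p under 0.05 in the same direction. Without Control 2 the number was 144, and without Control 3 it was 167. The sign turned in 3, 10 and 1 of them, respectively. A gene is called held below if it had an unadjusted p under 0.05 and the same direction with all 3 controls and with each left out. This was so for 24 genes lower (0.146%) and 15 genes higher (0.091%) in infused livers, 26 of them with a gene symbol. These 39 genes also had an unadjusted p under 0.05 when any of the 8 infused livers was left out. They had been chosen on these same livers, so this is no separate support. The largest p with any of the 11 livers left out was 0.0496 in edgeR's test, where the fits without a control are part of the rule. Being held is a description of stability against the choice of control. It does not replace the adjusted p, which no gene passed in the main test.

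Depth was comparable in both arms, with 18975413 to 33133296 counts in controls and 20563848 to 35949178 in infused livers. Genes with at least 1 read numbered 16993 to 20282 in controls and 13581 to 18629 in infused livers, with the fewest in Portal 1 (13581) and Portal 4 (14264). The share of counts on the mitochondrial genome was 4.84% to 7.94% in controls and 5.58% to 22.0% in infused livers. ALB, the albumin gene and an abundant hepatocyte transcript, had a log2 fold change of 0.38 (SE 0.53), and the 17 hepatocyte marker genes had a median of -0.03. The samples thus carried the defining transcripts of liver in both arms.

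INSIG1 was held lower after infusion. It lies on chromosome 18 of Sscrofa11.1 (2885494 to 2898758) and encodes the sterol sensor that holds SREBP in the endoplasmic reticulum and promotes the breakdown of HMG-CoA reductase, while being a SREBP target itself. Its normalized count, the count divided by the size factor of the library, was 16724, 14273 and 11821 in Controls 1, 2 and 3. In the infused livers it was 6876, 5774, 7418 and 4848 after arterial and 4332, 6108, 3692 and 1743 after portal infusion. No infused liver reached the lowest control, as was the case for 56 genes (0.34%) in the whole table. The mean was 14273 ± 2451 (SD, n = 3) against 5099 ± 1848 (SD, n = 8), a log2 fold change of -1.54 (SE 0.35, unadjusted p = 5.3e-04 in edgeR's test). The value stayed between -1.41 and -1.68 with any control left out. The 2 baseline livers were at 10329 and 7042, so that all controls lay above both of them and all infused livers except Arterial 3 below both.

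None of the other sterol genes was held. Of the 25 measured genes of cholesterol synthesis and sterol control, 24 had a lower value in infused livers, against 52.1% of all genes, and 19 had one without Control 2. The list's median log2 fold change was -0.59, and it was -1.05, -0.41 and -0.41 without Control 1, 2 and 3. An unadjusted p under 0.05 was reached by 4 genes, all lower, namely INSIG1, IDI1 (-1.58), SC5D (-0.90) and SREBF2 (-0.87), against 1.41% of all genes. IDI1, which interconverts the isoprenoid building blocks, had 331, 6230 and 4877 normalized counts in Controls 1, 2 and 3 and 400 to 4719 with a median of 774 in infused livers. Control 1 thus lay below every infused liver. The list as a whole showed the same, its level in Control 1 being the lowest of the 11 livers at -0.78 while Controls 2 and 3 were the highest. INSIG1 went against this pattern, with its highest value in Control 1.

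The subunits of C1q, the recognition molecule of the classical complement pathway, were held together. In liver they are transcribed mainly by macrophages, and their genes lie side by side on chromosome 6, with C1QA at 80586259 to 80589213, C1QC at 80592591 to 80597464 and C1QB at 80601680 to 80606076. C1QA had 7108, 18964 and 11901 normalized counts in Controls 1, 2 and 3 and 4674 to 6199 with a median of 5708 in the infused livers. C1QB had 7036, 15313 and 11878 in controls and 3855 to 7791 with a median of 5091 in infused livers. C1QC had 8519, 16377 and 12151 in controls and 4969 to 7616 with a median of 6133 in infused livers. For C1QA and C1QC every infused liver was below every control, and for C1QB only Portal 1 overlapped Control 1. The log2 fold changes were -1.18 (SE 0.30) for C1QA, -1.12 (SE 0.30) for C1QB and -0.98 (SE 0.30) for C1QC. Without Control 2, the highest control for each, they were -0.81, -0.89 and -0.77, with unadjusted p = 0.024, 0.018 and 0.037 in edgeR's test. Both routes gave the same size, with -1.21 after arterial and -1.14 after portal infusion for C1QA. The routes did not differ for it beyond the spread (unadjusted p = 0.84 in edgeR's test, difference 0.07 lower after arterial infusion, SE 0.34).

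**Figure D1:**
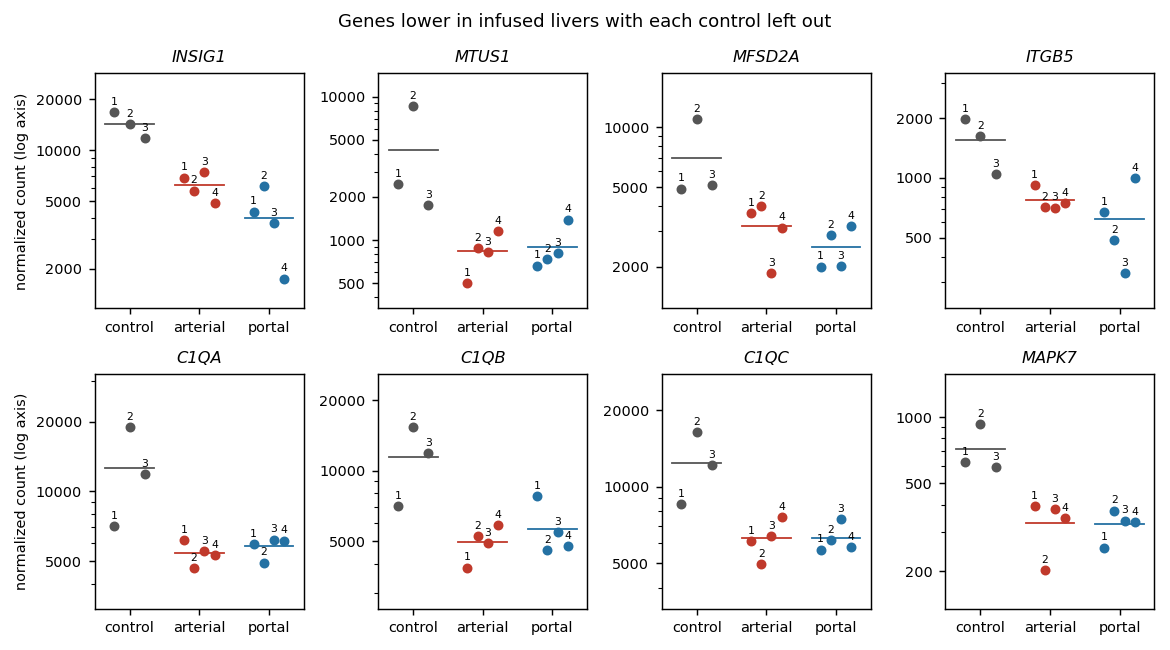
Normalized counts on log axes in each liver for 8 genes that were lower after infusion with each control left out; numbers give the replicate and lines the group mean. All infused livers are below all controls except for C1QB, where Portal 1 lies above Control 1.

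None of the other macrophage genes was held. Of the 18 measured genes of Kupffer cells and macrophages, 15 had a lower value and 3 a higher value in infused livers, with a median of -0.69 and of -0.86, -0.57 and -0.59 without Control 1, 2 and 3. Over all genes, 52.1% had a lower value. An unadjusted p under 0.05 was reached by 5, the 3 C1q genes, CSF1R and CD14, all lower, against 1.41% of all genes. CSF1R, the receptor for the macrophage growth factor CSF1, had 2018, 6052 and 3748 normalized counts in controls and 1602 to 2305 in infused livers, and its log2 fold change of -0.99 became -0.59 (unadjusted p = 0.089 in edgeR's test) without Control 2. CD14, the endotoxin co-receptor, had -0.82 with all controls and -0.05 without Control 2, where it stood at 77761 against 25944 and 20921. Markers of resident Kupffer cells did not separate the groups, with -0.40 (SE 0.42) for VSIG4, -0.41 (SE 0.61) for CLEC4F and -0.73 (SE 0.81) for TIMD4. The scavenger receptor gene MARCO had a higher value after infusion, at 1.46 (SE 0.92), and HMOX1, which degrades heme, was at 0.29 (SE 0.36).

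The level of the macrophage list, taken as the median over its members of the log2 deviation from the mean of the libraries, was 0.25 to 0.73 in controls and -0.69 to 0.09 in infused livers, with no overlap. The lowest were Portal 1 and Arterial 1, which are among the livers with the fewest genes detected, at 13581 and 15460. In a whole biopsy, fewer cells of a type and less RNA per cell cannot be told apart, and the part of gene detection in this difference was not tested.

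MTUS1, MFSD2A, ITGB5 and MAPK7 were lower in every infused liver than in every control. MTUS1, a microtubule-associated tumor suppressor on chromosome 17 (5331668 to 5507212), had 2445, 8583 and 1758 normalized counts in controls. It had 501, 877, 823 and 1150 after arterial and 663, 734, 813 and 1391 after portal infusion, all below the controls. The baseline livers had 686 and 1799 for MTUS1, so that Baseline 2 was above Control 3. The log2 fold change of -2.28 (SE 0.43) became -1.33 without Control 2 and -2.60 and -2.70 without Controls 1 and 3, and its adjusted p was 0.823 in edgeR's and 0.0401 in DESeq2's test. MFSD2A, a transporter of lysophosphatidylcholine that hepatocytes induce on fasting, had 4914, 10950 and 5105 in controls and 1849 to 4016 in infused livers, a log2 fold change of -1.31 (SE 0.32) that was -0.88 without Control 2. ITGB5, a vitronectin receptor subunit, had 1977, 1623 and 1047 in controls and 331 to 1002 in infused livers, with a log2 fold change of -1.20 (SE 0.31). MAPK7, the kinase ERK5, had 596 to 928 in controls and 202 to 395 in infused livers, with a log2 fold change of -1.13 (SE 0.32).

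Of the remaining named genes that were held lower, SNX8, an endosomal sorting nexin, had 1521, 1838 and 2022 normalized counts in controls and 533 to 1395 in infused livers. LTBP4, which anchors latent TGF-beta in the matrix, had 988, 1077 and 1517 in controls and 339 to 979 in infused livers. Their log2 fold changes were -0.91 (SE 0.29) and -1.15 (SE 0.34), and the groups did not overlap for either gene. MSX1, a homeobox transcription factor, had 70.4, 494 and 296 in controls and 15.9 to 107 in infused livers, so that Control 1 lay among the infused livers, and it had a log2 fold change of -2.17 (SE 0.55). SLC25A25, a calcium-regulated mitochondrial carrier, ARAP1 and DENND2B were also held and were picked for mention after their values were seen. Their means were 6881 ± 2313 (SD, n = 3) against 3153 ± 931 (SD, n = 8) for SLC25A25, 2238 ± 300.2 against 1282 ± 398 for ARAP1 and 924 ± 416 against 351 ± 158 for DENND2B, with groups that overlapped for each.

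CCL26 and PCSK1N stood on few reads. CCL26, the chemokine eotaxin-3, had 49.0, 42.0 and 139 normalized counts in controls. It had 25.0, 0, 3.24 and 10.5 after arterial and 0, 0, 5.02 and 0 after portal infusion, so that every infused liver was below every control and 4 of 8 were at 0. The log2 fold change was -4.38 (SE 1.28, unadjusted p = 0.0038 in edgeR's test) and -3.65 without Control 3. The baseline livers had 0.77 and 52.7 for CCL26, so that Baseline 2 was above Controls 1 and 2. PCSK1N, which encodes a proprotein convertase inhibitor of secretory granules, had 32.4, 66.5 and 72.3 in controls. It had 48.2, 13, 17.0 and 25.1 after arterial and 0, 5.60, 2.01 and 0 after portal infusion. Against controls, the log2 fold change was -1.15 (SE 1.07) after arterial and -4.74 (SE 1.22) after portal infusion, and the routes differed at an unadjusted p = 0.0068 but not after adjustment over all genes (adjusted p = 1.0 in edgeR's test). When the 8 infused livers were fitted as 1 group with the controls alone, PCSK1N had -2.03 (unadjusted p = 0.10) in edgeR's and -2.04 (unadjusted p = 0.088) in DESeq2's test. RGMA, LRRC3B, GPR20 and GFRA2 were also held lower, and RGMA, LRRC3B and GPR20 had control means of 23.5, 13.5 and 7.28 normalized counts against 2.98, 3.05 and 0.39 after infusion. The infused livers with many of the zeros, Portal 1 and Portal 4, also had the fewest genes with a read, and the part of this in the difference was not tested.

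Both subunits of glutamate-cysteine ligase were held higher after infusion. GCLM, the modifier subunit on chromosome 4 (123371198 to 123390130), had 1232, 1290 and 1244 normalized counts in Controls 1, 2 and 3, the closest agreement between controls among the genes plotted. It had 7991, 3295, 2266 and 1869 after arterial and 4562, 3297, 2716 and 5208 after portal infusion. GCLC, the catalytic subunit on chromosome 7 (27209565 to 27253535), had 483, 506 and 640 in controls. It had 1183, 3343, 1449 and 862 after arterial and 765, 2088, 1584 and 804 after portal infusion. For both genes all infused livers were above all controls, as they were for 37 genes (0.225%) in the whole table. This share was also below the probability of 0.00606 under random labels. The log2 fold change was 1.60 (SE 0.44, unadjusted p = 0.0027) for GCLM and 1.45 (SE 0.48, unadjusted p = 0.0082) for GCLC in edgeR's test. Leaving out any control kept these values between 1.57 and 1.60 for GCLM and between 1.37 and 1.57 for GCLC. The baseline livers had 2299 and 1491 for GCLM and 1419 and 1103 for GCLC, so that the controls were below baseline for both subunits.

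The subunits did not go together from liver to liver. The highest GCLM value was in Arterial 1 and the highest GCLC value in Arterial 2. Nor did the other antioxidant genes follow. The 29 measured NRF2 targets and antioxidant genes had a median of -0.09. Of these, 13 were higher and 16 lower, against 52.1% of all genes lower. An unadjusted p under 0.05 was reached by 2 higher members, GCLM and GCLC, against 0.734% of all genes. The 3 other members at that p were lower, namely MT3 (-2.12), MT1A (-1.42) and PRDX5 (-0.68), against 1.41% of all genes. None of these lower members was held. The metallothioneins MT3 and MT1A bind zinc and copper, and PRDX5 is a peroxiredoxin. Without Control 2, MT3 was at 0.17 and MT1A at 0.33, as Control 2 had 245754 normalized counts of MT1A against 20890 and 35526 in the other controls. NQO1, a quinone reductase and a usual NRF2 target, had 0.86 (SE 0.55), and HMOX1, SRXN1 and TXNRD1 did not separate the groups (0.29, 0.05 and -0.27).

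**Figure D2:**
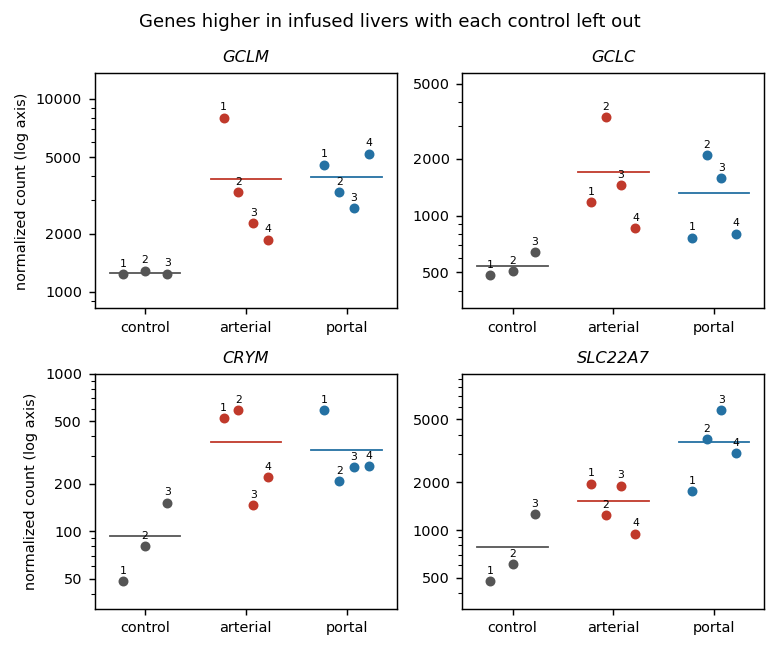
Normalized counts on log axes in each liver for 4 genes that were higher after infusion with each control left out; numbers give the replicate and lines the group mean. All infused livers lie above all controls for GCLM and GCLC, and the groups overlap for CRYM and SLC22A7.

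CRYM, which encodes a thyroid hormone-binding protein of the cytosol, had 48.3, 80.5 and 152 normalized counts in controls and 146 to 589 with a median of 256 in infused livers, overlapping only at Control 3 and Arterial 3. The difference was 1.85 on the log2 scale (SE 0.55). SLC22A7, the hepatic organic anion transporter OAT2, had 478, 613 and 1256 in controls, 1961, 1244, 1907 and 949 after arterial and 1769, 3767, 5722 and 3056 after portal infusion. The portal livers were all above the controls and the arterial livers overlapped with Control 3. The log2 fold change was 0.95 (SE 0.52) for the arterial and 2.19 (SE 0.55) for the portal route, and the difference between routes had an unadjusted p = 0.021 and an adjusted p = 1.0 in edgeR's test. RNF144B, a ubiquitin ligase, had 229, 94.5 and 315 in controls and 196 to 1512 in infused livers, with a log2 fold change of 1.91 (SE 0.63). Its values in Arterial 1, Arterial 4, Portal 1 and Portal 4 were 398, 196, 447 and 546 and those of the remaining infused livers 1059 to 1512.

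SCN9A, a voltage-gated sodium channel gene, had 0 reads in all 3 controls and 0, 75.2, 39.7 and 14.7 normalized counts after arterial and 0, 22.4, 52.2 and 0 after portal infusion. Against the limit that a count of 0 allows, 3 reads per control library, the infused mean was at least 7.82-fold higher. The groups overlapped, since 3 infused livers were also at 0, and the exact permutation test over the 11 livers gave p = 0.18 (two-sided). The baseline livers had 28.5 and 23.2. Of the 13 held genes without a symbol, 4 were lower and 9 higher, such as ENSSSCG00000004207 with a mean of 397 in controls and 120 in infused livers and ENSSSCG00000059897 with 45.1 and 397.

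Across the 38 genes selected by the naming rule, 2 differed between the arterial and portal route at an unadjusted p under 0.05, PCSK1N and SLC22A7, and 0 did so after adjustment over all genes in edgeR's test. The smallest p that the exact permutation test of 8 against 3 livers can give is 0.00606. It was reached, for example, by INSIG1, MTUS1, C1QA, C1QC, ITGB5 and CCL26, and the test gave 0.0121 for GCLM and 0.0242 for GCLC. These genes were selected by their values in the same livers, so these p-values only describe them and are no separate support.

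The differences in TNF, CCL3L1 and CCL4 rested on Control 2. TNF had 13.4, 4886 and 23.1 normalized counts in Controls 1, 2 and 3 and 5.24 to 53.9 in the infused livers. CCL3L1, a macrophage inflammatory protein 1 chemokine whose reads could be shared with near-identical gene copies, had 24.5, 5541 and 182 in controls and 33.3 to 179 in infused livers. CCL4, its close relative, had 37.2, 8370 and 412 in controls and 51.5 to 441 in infused livers. The infused livers thus lay close to Controls 1 and 3 for these 3 genes and far below Control 2. With all 3 controls the log2 fold change was -5.67 (SE 1.10) for TNF, -4.53 (SE 0.89) for CCL3L1 and -3.61 (SE 0.88) for CCL4. Without Control 2 these values were 0.70, -0.41 and 0.01, with unadjusted p = 0.48, 0.60 and 0.99 in edgeR's test. CCL8 and IL1A, an attractant of monocytes and a proinflammatory cytokine, had 289 and 273 in Control 2 and at most 13.4 in the other controls. Their log2 fold changes of -5.54 and -5.56 became -1.31 and -2.24 without it. The row of ssc-mir-126, a microRNA precursor measured here from messenger RNA libraries, had 85.8 in Control 2 and 0 in the other controls.

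Gene groups moved with Control 2 in the same way. The 13 measured CC chemokines had a median log2 fold change of -0.81 with all controls and of -0.01 without Control 2. CCL26 was the only one of them that was held. For the 15 neutrophil genes, the median went from -0.94 to -0.03, and for the 6 erythroid genes from -0.64 to 1.42. HBB, the beta-globin gene, had 28220 normalized counts in Control 2 and 2726 and 1298 in Controls 1 and 3. Of the 69 genes of cytosolic ribosomal proteins, 60 had a lower value with all controls, against 52.1% of all genes. Their median of -0.13 turned to 0.37 without Control 2, and was -0.36 and -0.46 without Controls 1 and 3. The 80 nuclear genes of the respiratory chain went from -0.19 to 0.24 without Control 2, and to -0.30 and -0.50 without Controls 1 and 3. Control 2 also had the fewest counts of the 11 livers, at 18975413, and the smallest mitochondrial share.

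Controls 1 and 3 had their own genes. CYP1A1, a cytochrome P450 induced through the aryl hydrocarbon receptor, had 13683 normalized counts in Control 1 and 84.0 and 138 in Controls 2 and 3, against 80.3 to 2393 in infused livers. Its log2 fold change was -2.93 (unadjusted p = 0.015) with Control 1 and 2.5 (unadjusted p = 0.029) without it in edgeR's test. IL11, a cytokine of the IL-6 family, had 192 in Control 1 and 17.5 and 35.4 in the other controls, and went from -3.09 to -1.42. AVPR1A, a vasopressin receptor gene, went from -1.37 to 0.20. The 24 immediate early genes had a median of -0.72 with all controls and of -0.20 without Control 1. With all controls, JUN (-1.26), JUNB (-1.21), NR4A1 (-1.18) and CCN2 (-1.18) had an unadjusted p under 0.05. These were 4 of the 24, against 1.41% of all genes called lower, and 0 of the list were held. Control 3 had 8255 normalized counts of the secreted glycoprotein gene LGALS3BP against 1304 and 1854, and leaving it out took the log2 fold change from -1.32 to -0.07. It was the highest control for ELN, which encodes elastin (630 against 204 and 43.8), and for SLC2A5, the fructose transporter gene (56.4 against 3.2 and 7.0). The 35 interferon-stimulated genes had a median of 0.0024 with all controls and of 0.88 without Control 3.

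**Figure D3:**
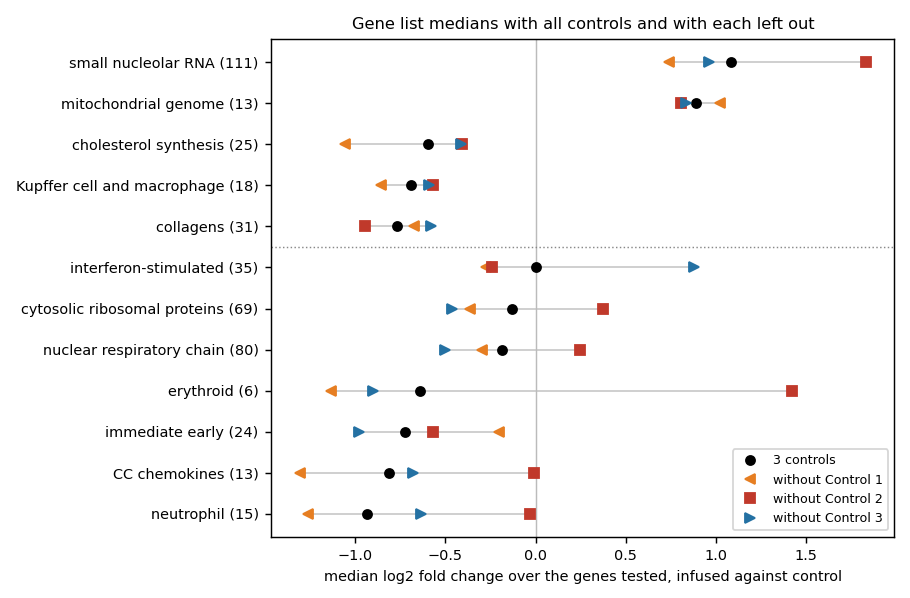
Median log2 fold change of infused against control livers over the tested genes (number in brackets) of 12 gene lists, with all 3 controls and with each left out. The 5 lists above the dotted line stay on 1 side of 0 and away from it; among the 7 below it, the medians approach 0, cross it or leave it when a control is left out.

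Of 49 gene lists, 5 kept a median at least 0.3 away from that of all genes on the same side, with at least 2 of 3 members in that direction, in all 4 fits. They were the cholesterol and macrophage lists described above and collagens, all lower, and the mitochondrial genome and small nucleolar RNAs, both higher. Of the 31 measured collagen genes, 26 had a lower value in infused livers, against 52.1% of all genes, and 7 an unadjusted p under 0.05, all of them lower, against 1.41% of all genes. These were COL1A1 (-2.17), COL1A2 (-1.48), COL6A2 (-2.02), COL6A5 (-2.61), COL4A1 (-0.77), COL4A2 (-0.81) and COL18A1 (-0.66), which span the fibrillar collagens, the beaded filaments and the basement membrane. COL1A1, a chain of type I collagen, had 10110, 2719 and 20605 normalized counts in controls and 640 to 10967 with a median of 1658 in infused livers. The median of the list was -0.77, and -0.67, -0.94 and -0.58 without Control 1, 2 and 3, while 0 of its genes were held. COL1A1 and COL6A2 were at an unadjusted p of 0.089 and 0.079 without Control 3 in edgeR's test. In contrast to the inflammatory genes, Control 2 was the lowest control for COL1A1, and Arterial 4 had the highest level of the list of all 11 livers.

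**Figure D4:**
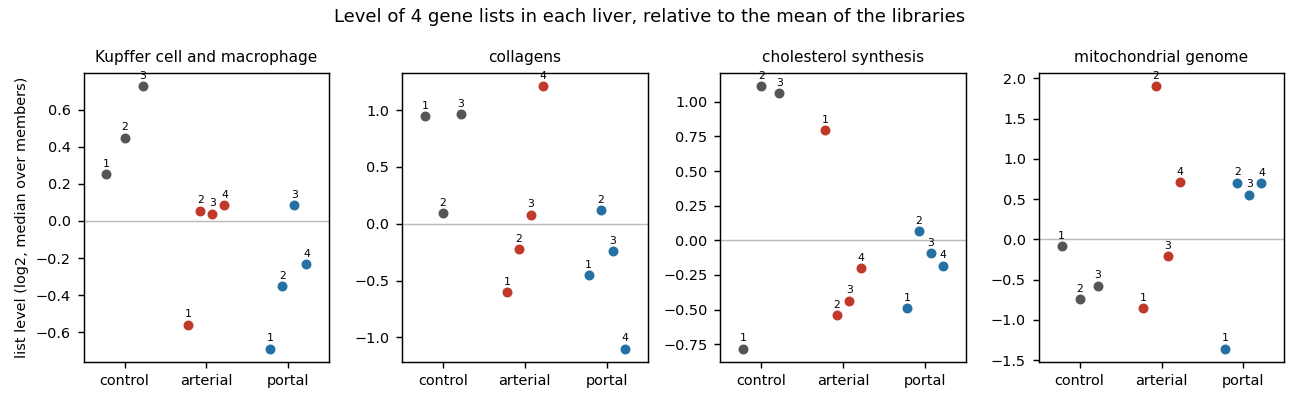
Level of 4 gene lists in each liver, as the median over the members of the log2 deviation from the mean of the 11 libraries; numbers give the replicate. Infused livers lie below controls for the macrophage list, while the groups overlap for collagens, cholesterol synthesis and the mitochondrial genome.

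The mesenchymal stromal cell list, measured here in pig genes, had 17 of 20 members lower, against 52.1% of all genes. Its median was -0.43, and -0.46 without Control 1, where 12 of 20 were lower, and 0 members were held. The list shares COL6A2 and other collagens with the collagen list above. The stellate cell and stromal list had a median of -0.42, with 14 of 20 members lower, and 11 of 20 without Control 1. COL1A1 and COL1A2 were its only members at an unadjusted p under 0.05, and 0 were held. Neither list passed the rule for lists given above.

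All 13 protein genes of the mitochondrial genome had a higher value after infusion, with a median of 0.89 and of 1.02, 0.80 and 0.83 without Control 1, 2 and 3. ND4L and ND4, subunits of respiratory complex I, had log2 fold changes of 2.0 (SE 0.80) and 1.42 (SE 0.66) at an unadjusted p under 0.05, and neither was held. ND4L had 9808, 4620 and 5300 normalized counts in controls, 3819, 64368, 30288 and 38764 after arterial and 2453, 27808, 28980 and 24740 after portal infusion. Arterial 1 and Portal 1 were thus below all controls and the remaining 6 infused livers above all of them. The reading frames of ND4L and ND4 overlap, so that their reads are not fully separate. The small nucleolar RNA genes SNORD21 and SNORD24 split the infused livers in the same way, with 0 counts in Arterial 1 and Portal 1, 33.1 to 322 and 31.9 to 104 in the remaining infused livers, and at most 33.3 and 10.5 in controls. Of the 111 measured small nucleolar RNAs, 86 had a higher value and 6 an unadjusted p under 0.05, all higher, with a median of 1.08. Over all genes, 7890 of 16481 had a higher value, and 0.734% were higher at that p. The level of the list was -0.85 to 0.47 in controls, while Arterial 1, Portal 1 and Portal 4 were below every control at -1.34, -1.51 and -1.10 and the remaining infused livers at 0.22 to 1.61. The median member had a mean of 9.08 normalized counts in controls and 17.3 in infused livers. These RNAs lie in introns of other genes and carry no poly(A) tail, and the libraries were made from poly(A) RNA without strand information.

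The genes SCN9A, SNORD24, SNORD21, ND4L, CCL26, AK5, RETN, CDC42EP5 and MVD had been named for the infusion comparison on these same libraries, so their direction here is not independent evidence. A figure legend of that comparison also names ND4, to which the same applies. That comparison used the livers positive for human B2M, which the labels do not identify, and not all infused livers. In the pooled comparison 4 of the 9 (CCL26, CDC42EP5, ND4L and SCN9A) reached an unadjusted p under 0.05 and 2 were held, CCL26 and SCN9A. As SCN9A had 0 reads in every control, leaving out a control could not turn its direction. Being held therefore says little for SCN9A. RETN, which encodes resistin, had 78.3, 1351 and 212 normalized counts in controls and 12 to 924 in infused livers. The log2 fold change of RETN was -1.62 (SE 1.07) with all controls, 0.22 without Control 2 and -3.04 (unadjusted p = 0.0036 in edgeR's test) without Arterial 1. CDC42EP5, an effector of the GTPase CDC42, had 3638 in Control 2 against 619 and 442 in the others, and its value went from -1.88 (SE 0.67) to -0.38. MVD, a decarboxylase of the mevalonate pathway, had 364, 2664 and 1169 in controls and 133 to 2240 in infused livers, with -1.04 (SE 0.77) that became -0.22 without Control 2 and -1.73 (unadjusted p = 0.019 in edgeR's test) without Arterial 1. AK5, an adenylate kinase gene, had 52.2, 12.3 and 16.6 in controls and 0 to 47.8 in infused livers, with -2.24 (SE 1.39). Without Control 1 it was -1.30, without Arterial 1 -4.41 (unadjusted p = 0.0084) and without Portal 4 -3.27 (unadjusted p = 0.032) in edgeR's test.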

How the data were processed

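RNA was measured in 13 pig liver libraries, and 8 infused and 3 ischemic control livers were compared. Reads were aligned by the authors to the assembly Sscrofa11.1 (HISAT2) and assigned to Ensembl genes (FeatureCounts), and the deposited values are raw counts that had not been normalized. Tool versions, strand setting and the handling of reads with several hits are not given in the sources used here. Without molecular identifiers, intervals and limits from counts cover counting error only. Grouping and replicate numbering follow the labels, which do not tie samples to animals. A baseline biopsy may come from a pig that also gave a later sample, whereas the fit treats all libraries as independent. No pair of libraries of a group was a copy of another (smallest chi-square per gene 72.1). Of the 35670 rows, 17640 are paired with a symbol in the file and 119 more in a table of pig gene names. Positions are those of RefSeq for Sscrofa11.1, matched by symbol for 14632 genes. Of several rows under 1 listed symbol, that of the highest total was taken.

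The main test was the quasi-likelihood test of edgeR 4.0.16 in R 4.3.3 after TMM normalization and filterByExpr, with Benjamini-Hochberg adjustment, a threshold of 0.05 and all 4 groups in 1 fit, with the mean of the arterial and portal groups against controls. Normalized counts are counts divided by DESeq2 1.42.0 size factors. Single genes were also compared by two-sided exact permutation tests on log2(normalized count + 1). The script was tried on simulated data first. Alternatives were DESeq2, limma 3.58.1 (voom with quality weights), sva 3.50.0, other normalizations, filters and library sets, the replicate number as a block, and each library left out. Gene lists were described by counts and medians, with no test.

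The 38 genes selected by rule are up to 12 held genes with a symbol in each direction, with a mean of at least 10 normalized counts in a group and the smallest largest p over the 4 fits, list members that were held, the genes named by the study for the infusion comparison, and the genes with an unadjusted p under 0.05 that moved most toward or past 0 without each control. Further list members were named as examples after their values were seen. The members, gene lists and rules were chosen with earlier results of these data known. The human B2M measurements are not used here.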

Additional observations from a re-analysis of the deposited data

Results flagged for a closer look

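Values far from the others of their group were searched for in 114 groups, the arterial, the portal and all infused livers for each of the 38 named genes, by the gap to the nearest value relative to the range of the group, on the log2(normalized count + 1) scale. The rule is set so that chance flags about 1 in 20 groups, and 9 were found. Where all other livers of a group are at 0, any other value is flagged. That rate does not apply to such groups, so the 9 cannot be set against it. After portal infusion, CCL26 stood at 5.02 normalized counts in Portal 3 with the other 3 livers at 0, SLC2A5 at 4.01 and ssc-mir-126 at 3.01 in the same liver with the others at 0, and ssc-mir-126 was also apart among all 8 infused livers. After arterial infusion, AK5 stood at 9.82 in Arterial 1 and IL1A at 6.29 in Arterial 4, with the others at 0.

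The higher counts gave 3 further values. ND4L was at 2453 in Portal 1 against 24740 to 28980 in the other portal livers. LGALS3BP was at 1445 in Arterial 1 against 1138 to 1185 in the other arterial livers. ELN was at 0 in Portal 4 while the remaining infused livers had 30.6 to 145.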

How the results depend on the processing

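Genes with an adjusted p under 0.05 numbered 0 in edgeR's fit with all settings except the unfiltered one, which gave 19, among them MTUS1, COL1A1, CYP1A1, CCL4 and TNF. DESeq2 gave 2 over all libraries and 1 (MTUS1) over the 11 compared, and limma voom gave 0. The 353 genes with an unadjusted p under 0.05 were 267 to 606 with 1 library left out, the most without Portal 1, and 555 with DESeq2, 1869 with limma voom, 1345 without a filter and 1102 with 1 surrogate variable. Their share of lower genes, 65.7%, was 39.1% with DESeq2 over all libraries, 32.5% over the 11, 52.7% with at least 10 counts in every library, 76.4% with the surrogate variable and 80.4% without a filter. RLE and upper quartile scaling gave 60.8% and 56.9%. The 39 held genes numbered 15 to 91 with 1 library left out. The counts were 20, 17 and 15 without Control 1, 2 and 3, where some fits rest on a lone control, 74 without Arterial 4 and 91 without Portal 1. They numbered 92 (18 lower, 74 higher) with DESeq2 over all libraries, 83 over the 11, 164 with limma voom, 120 without a filter and 176 with the surrogate variable. If held meant that groups did not overlap, 93 genes would qualify. The direction of all 39 was the same in every setting they were tested in (25 of them under the filter of 10 counts), and 29 were among the 92. Of the 39, 23 were also held with limma voom, 26 without a filter and 36 with the surrogate variable. Fitted to the 11 livers with infusion as 1 group, 34 of the 39 had an unadjusted p under 0.05 in edgeR's and 33 in DESeq2's test. The cause of these differences between tools was not tested.

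The replicate number as a block gave 314 genes with an unadjusted p under 0.05, 80.6% of them lower, and 32 held genes, of which 14 were shared with the 39. The deviations of same-numbered livers correlated at 0.42, 0.29, 0.43 and -0.10 between the arterial and portal groups (numbers 1 to 4) and at -0.42 to 0.10 with the controls, and a liver correlated best with its own number in 5 of 20 comparisons with another group. The numbers were not taken as pairs, since the correlations with the controls were -0.42 to 0.10. Numbers 1 to 3 correlated positively between the arterial and portal groups, and what these livers share was not tested. Under the block RETN (-2.94), AK5 (-3.81) and MVD (-2.10) came to an unadjusted p under 0.05, while ND4L, CYP1A1, AVPR1A, ssc-mir-126, TNF, LGALS3BP and ELN no longer had one (0.073 to 0.50). With a library left out, named genes turned sign without Control 2 for RETN (0.22, otherwise down to -3.04), ssc-mir-126 (1.47, down to -7.83), TNF (0.70, down to -6.33) and CCL4 (0.0066, down to -4.27), and without Control 1 for CYP1A1 (2.5, down to -3.57) and AVPR1A (0.20, down to -1.81). With 3 controls and a common biological coefficient of variation of 0.729, small differences were not detectable.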

Other observations

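Some genes separated the arms in every liver but missed an unadjusted p under 0.05 in at least 1 of the 4 fits. They were picked after their values were seen. TMEM204, a membrane protein of endothelial cell junctions, had a mean of 276 normalized counts in controls and 91.5 in infused livers, a log2 fold change of -1.65 (SE 0.55) in edgeR's test. CRISPLD2, a secreted glycoprotein that binds endotoxin, had 1081 and 508, a log2 fold change of -1.13 (SE 0.39). MFAP4, a microfibril-associated matrix protein, had 579 and 282, a log2 fold change of -1.09 (SE 0.40). In the other direction, ZCCHC2 had 418 in controls and 789 in infused livers, a log2 fold change of 0.87 (SE 0.32).

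The 33 measured genes of glycolysis, gluconeogenesis and glycogen missed the limit of 0.3 for a list, with 27 lower and a median of -0.29, and of -0.34, -0.30 and -0.32 without Control 1, 2 and 3. The level of the list was 0.23 to 0.30 in controls and -0.38 to 0.17 in infused livers, with no overlap. LDHA, a lactate dehydrogenase subunit, was its only gene with an unadjusted p under 0.05 in edgeR's test, with a log2 fold change of -0.88 (SE 0.40), against 1.41% of all genes called lower, and 0 were held.

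TAT, the liver enzyme tyrosine aminotransferase that glucocorticoids induce, was the hepatocyte marker with an unadjusted p under 0.05, at 78233, 43338 and 31453 normalized counts in Controls 1, 2 and 3 and 6739 to 37064 in infused livers. Its log2 fold change was -1.42 (SE 0.45), and -0.96 (unadjusted p = 0.085 in edgeR's test) without Control 1.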
